A study of Homo sapiens with 6 samples.

Results

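The transcripts described here are those of calcineurin, of the NFAT transcription factors and of the calcineurin regulators RCAN1 and RCAN3. They are the 10 rows of the gene count table that carry the symbols NFATC1, NFATC2, NFATC3, NFATC4, NFAT5, PPP3CA, PPP3CB, PPP3CC, RCAN1 and RCAN3, of 58884 gene rows in all. The genes were taken by name, and all 10 passed the filter on low counts. They were measured in 6 libraries of SW480, an established human colorectal cancer line, recovered from liver metastases in NSG mice, which lack mature lymphocytes and so do not reject human cells. Cells of 3 libraries carried a control guide RNA (sgCtrl) and cells of the other 3 a guide RNA against ITPR3 (sgITPR3), and all had been separated from dissociated liver by a density gradient and depletion of mouse cells. The age and sex of the mice, the guide sequences, whether each line is a clone or a pool, and whether every library stems from a different animal are details not given in the sources used here. The p-values therefore measure only the spread between these libraries, which may be technical.

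Calcineurin is the phosphatase that answers to calcium and calmodulin. Its catalytic subunit is encoded by PPP3CA, PPP3CB or PPP3CC and pairs with a regulatory subunit, mostly PPP3R1. When calcium released through IP3 receptors such as ITPR3 is followed by entry across the plasma membrane, calcineurin removes phosphates from NFATC1, NFATC2, NFATC3 and NFATC4, which then enter the nucleus and bind GGAAA cores next to partners such as AP-1, until kinases send them back out. RCAN proteins bind calcineurin and at high levels inhibit it. RCAN1 is itself a textbook NFAT target through a start site inside the gene. NFAT5 shares the DNA-binding fold but answers to osmotic stress and not to calcineurin. This control acts on protein location and phosphorylation, which transcript counts do not measure.

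Among the promoter windows available for the members, that inner start site of RCAN1 carried the most GGAAA cores. The upstream start of NFATC2, the member with the lowest p of the 10, came next. The RefSeq (GRCh38.p14) windows used here covered 6 of the 10 members, 17 windows in all, each from 250 bases before to 50 bases after an annotated start. None was at hand for NFAT5, PPP3CA, PPP3CB or PPP3CC. Capitals mark GGAAA on either strand, and a window of NFATC4, the other member that passed the test, is shown for comparison.
RCAN1 inner start, chr21:34526773-34527072, minus strand: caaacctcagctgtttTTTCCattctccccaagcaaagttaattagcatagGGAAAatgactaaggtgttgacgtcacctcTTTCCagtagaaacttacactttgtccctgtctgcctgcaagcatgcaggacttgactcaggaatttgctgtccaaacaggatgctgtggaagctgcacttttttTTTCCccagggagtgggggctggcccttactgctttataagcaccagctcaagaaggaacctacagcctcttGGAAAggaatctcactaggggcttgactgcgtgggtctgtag
NFATC2 upstream start, chr20:51562790-51563089, minus strand: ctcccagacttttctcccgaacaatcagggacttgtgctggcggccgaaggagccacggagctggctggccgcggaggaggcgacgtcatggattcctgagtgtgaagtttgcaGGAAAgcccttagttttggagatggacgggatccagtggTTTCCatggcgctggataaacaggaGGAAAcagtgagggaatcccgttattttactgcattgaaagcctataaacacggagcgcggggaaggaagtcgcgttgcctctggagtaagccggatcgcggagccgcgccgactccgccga
NFATC4 upstream start, chr14:24366661-24366960, plus strand: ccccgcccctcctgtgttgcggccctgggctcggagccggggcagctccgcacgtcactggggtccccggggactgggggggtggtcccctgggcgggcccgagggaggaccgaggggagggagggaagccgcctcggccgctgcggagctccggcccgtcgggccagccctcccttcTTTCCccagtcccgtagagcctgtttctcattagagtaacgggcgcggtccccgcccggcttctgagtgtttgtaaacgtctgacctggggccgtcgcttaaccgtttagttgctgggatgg
The RCAN1 window held 5 matches, a number reached by 0.74% of 35116 promoter windows of the same length. It is the highest of the 17 member windows, so this share is not that of a window picked beforehand. The other RCAN1 windows held 1, 1, 0, 0 and 0. The NFATC2 window held 3, a number that 9.94% of windows reached, while the other NFATC2 window, at the inner start (chr20:51542670-51542969), held 0. The NFATC4 window held 1, as 61.2% of windows did at least, and both other NFATC4 windows held 0. A match describes the letters only, and counts taken at transcript ends do not tell which of these starts was used.

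Depth was 19140055 to 23943797 counts per library. Levels are CPM, counts scaled to a common library size by the TMM method, in which a single count was worth 0.0405 to 0.0538, and the 10 genes together took 0.0314% to 0.034% of the counts of a library. The targeted gene was at 107.5, 93.9 and 94.2 CPM in sgCtrl and at 39.4, 41.0 and 46.2 CPM in sgITPR3 (ITPR3, log2 fold change -1.22, edgeR quasi-likelihood adjusted p = 1.28e-07). The groups did not overlap, but a tag at the transcript end may lie outside the edited part, so it is no check of the protein. Of 8 colorectal epithelial markers, 7 were tested and together all 8 held 2400 to 2710 CPM in sgCtrl and 2300 to 2350 CPM in sgITPR3, without overlap; AXIN2 and CDX2 rose, KRT8 and EPCAM fell, and KRT20 was at or under 0.39 CPM. Hepatocyte markers, 9 in all, summed to 66.1 to 246 CPM in sgCtrl and 147 to 293 CPM in sgITPR3, of which ALB was at 33.8, 169.7 and 21.6 CPM in sgCtrl and 231.6, 152.6 and 111.5 CPM in sgITPR3, and APOC3 was at 0 in all 6 libraries. Of these 9, 6 were tested: APOA1 rose, SERPINA1 fell from 43.3 ± 3.86 to 13.9 ± 2.17 CPM without overlap (log2 fold change -1.64, edgeR adjusted p = 1.51e-07), and 4, ALB among them (log2 fold change 1.14, edgeR adjusted p = 0.123), did not pass. The 4 erythroid markers summed to 0.587 to 1.34 CPM and 4.84 to 6.39 CPM, with HBB at or under 0.0994 CPM. Endothelial and macrophage markers summed to at most 0.67 and 2.26 CPM. Markers of stellate cells and fibroblasts summed to 6.03 to 6.51 CPM in sgCtrl and 8.61 to 10.7 CPM in sgITPR3, most of it COL1A1. Of 7 lymphocyte markers, CD3D was at 92.5 to 148.6 CPM, while CD2, MS4A1 and NKG7 were at 0 in all 6 libraries and PTPRC was at 0 in 5 of them.

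The comparison of sgITPR3 with sgCtrl asked which of these transcripts differ when ITPR3, a channel upstream of calcineurin, is targeted. NFATC2 fell 1.92-fold and NFATC4, a rarer transcript, rose 2.17-fold, while the other 8 members did not pass the test. PPP3CA and PPP3CB, the 2 most abundant catalytic subunit transcripts, lay apart in opposite directions just short of the threshold. The calcineurin-responsive regulator RCAN1 overlapped between the groups. So 1 member fell and 1 rose, against 11.9% of all 15804 tested genes that fell and 11.6% that rose. A share of 2 in 10 is near the 23.5% called in either direction over all genes. The median log2 fold change of the 10 was -0.08, beside 0.000859 over all tested genes.

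**Figure D1:**
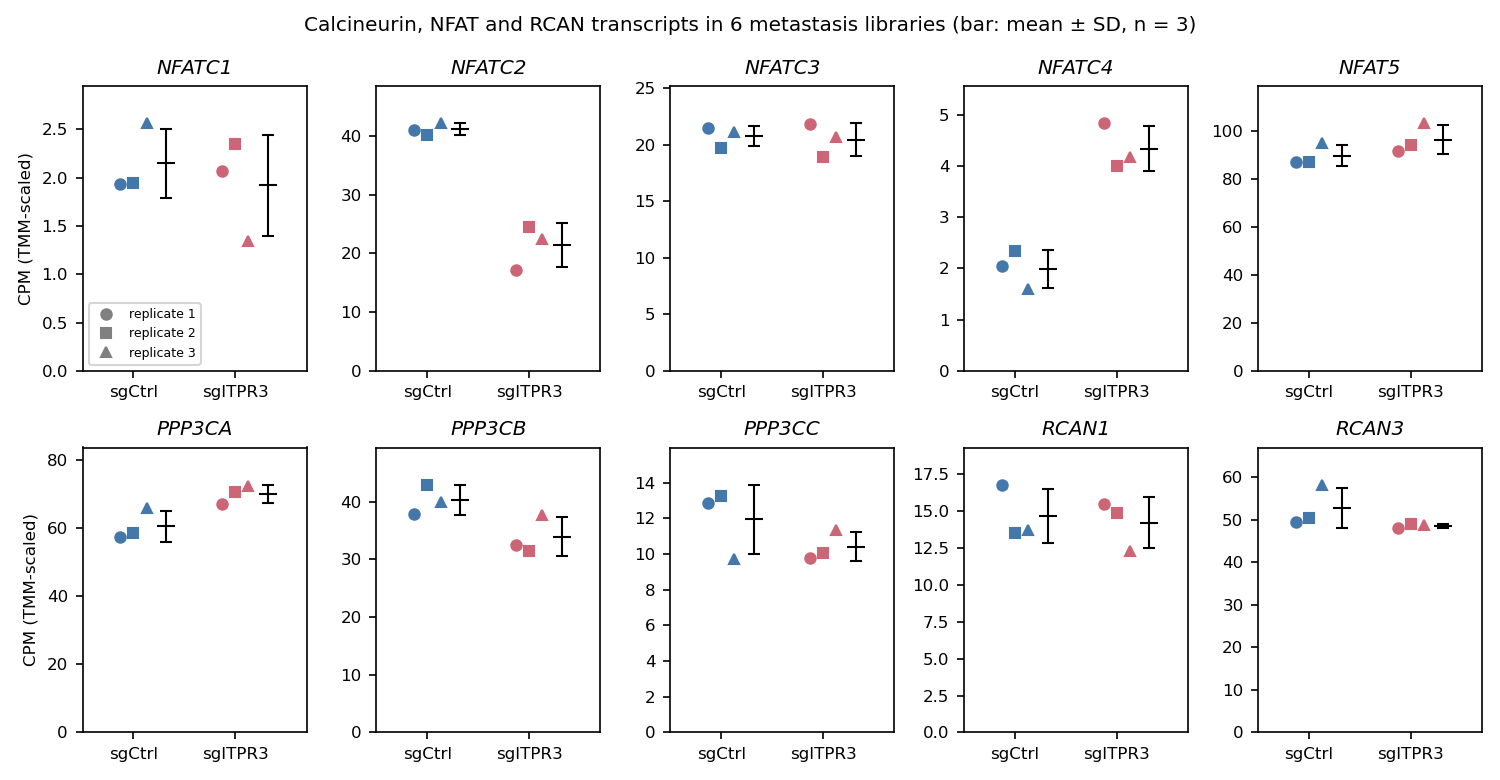
CPM (linear axes from 0) of each of the 10 transcripts in the sgCtrl (blue) and sgITPR3 (red) libraries, with a marker shape per replicate and a bar for the mean ± SD of 3 libraries. NFATC2 separates the groups at 40.1 CPM or more against 24.5 CPM or less, and NFATC4 at 2.34 CPM or less against 4.01 CPM or more.

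Of the 4 calcium-regulated factors, NFATC2 was the most abundant in sgCtrl. NFATC2 (ENSG00000101096, chromosome 20, 51386957 to 51562831, minus strand, GRCh38), best known for switching on cytokine genes in T cells, was at 41.1, 40.1 and 42.2 CPM in sgCtrl and at 17.2, 24.5 and 22.5 CPM in sgITPR3. The control libraries lay close together, all sgITPR3 libraries lay below them, and sgITPR3 replicate 1 was the lowest. Means were 41.1 ± 1.03 and 21.4 ± 3.75 CPM (SD, n = 3 each), 1.92-fold lower in sgITPR3, with a log2 fold change of -0.94 (SE 0.112, edgeR adjusted p = 3.05e-05) and a 95% interval of the change from -55.9% to -38.6%. In these bulk libraries fewer cells that express a gene and less of its RNA per cell cannot be told apart. The value rests on 399 to 807 counts per library, and the only annotated gene overlapping NFATC2, MIR3194, had 0 counts.

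NFATC4 (ENSG00000100968, chromosome 14, 24365673 to 24379604, plus strand), a family member known from nerve, heart and other non-lymphoid tissue, was at 2.04, 2.34 and 1.602 CPM in sgCtrl and at 4.84, 4.01 and 4.17 CPM in sgITPR3. The groups did not overlap, and sgITPR3 replicate 1, lowest for NFATC2, was highest for NFATC4. Means were 1.99 ± 0.37 and 4.34 ± 0.439 CPM, 2.17-fold higher in sgITPR3 (log2 fold change 1.12 with an SE of 0.225, edgeR adjusted p = 0.00245). Counts behind these levels were 30 to 47 per sgCtrl library and 81 to 112 per sgITPR3 library, and the 95% interval accordingly ran from 55.4% to 203% higher. With the ALB level as a covariate its log2 fold change was 0.86 and the call ended (edgeR adjusted p = 0.0592), whereas that of NFATC2 was -0.85 (edgeR adjusted p = 2.36e-04). The sgCtrl library with the most ALB was replicate 2, where NFATC4 was at 2.34 CPM and NFATC2 at 40.1 CPM. The sgITPR3 library with the most ALB, 231.6 CPM, was replicate 1, where NFATC4 was highest and NFATC2 lowest. Replicate 2 of sgITPR3 had more ALB than replicate 3 (152.6 and 111.5 CPM) but less NFATC4. ALB was the only hepatocyte marker used in this fit. Of the others tested, APOA1, FGB, TTR and TF had log2 fold changes of 1.015 to 1.153, with only APOA1 called. SERPINA1 had a log2 fold change of -1.64 and was called lower. The part of liver RNA in either result was not tested further.

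NFATC3, which is expressed in many tissues, was at 21.5, 19.7 and 21.1 CPM in sgCtrl and 21.8, 18.9 and 20.7 CPM in sgITPR3. The groups overlapped almost fully (log2 fold change -0.02, 95% interval -0.23 to 0.18, edgeR adjusted p = 0.895). Its 3' part overlaps ESRP2 on the opposite strand, which had 963 counts over the 6 libraries and a log2 fold change of -1.02, and an antisense transcript with 630 counts, so reads of these genes cannot be told apart where strand was not used. NFATC1, known from lymphocytes, heart valves and osteoclasts, was at 1.94, 1.94 and 2.56 CPM in sgCtrl and 2.07, 2.35 and 1.34 CPM in sgITPR3. With 26 to 58 counts per library its interval was wide, from -40.9% to 38.0% (log2 fold change -0.15, edgeR adjusted p = 0.757). The NFATC2 estimate lay outside it, but the NFATC2 interval, from -55.9% to -38.6%, overlapped it. A fall of the size at the weaker end of the NFATC2 interval, -38.6%, is thus not excluded, and smaller changes could not be seen at this depth.

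The make-up of the calcium-regulated factors followed from these 2 changes. Shares and sums reuse the counts already tested, so they are a description and no separate support. NFATC2 held 61.8%, 62.6% and 62.5% of the counts of NFATC1, NFATC2, NFATC3 and NFATC4 together in sgCtrl and 37.5%, 49.2% and 46.2% in sgITPR3. Its share thus went from 62.3% ± 0.444 to 44.3% ± 6.09 (SD, n = 3), a difference of -17.95 points with no overlap (exact permutation test, two-sided, p = 0.1, the smallest that 3 against 3 allows). NFATC3 went from 31.5% ± 0.748 to 42.6% ± 4.74 of this sum and NFATC4 from 3.03% ± 0.636 to 9.05% ± 1.30, each without overlap. The level of NFATC3 itself was 20.8 CPM in sgCtrl and 20.5 CPM in sgITPR3, so its larger share reflects the smaller sum. NFATC1 held 3.24% ± 0.483 and 3.99% ± 1.08. In sgITPR3 replicate 1 NFATC3, at 47.5%, exceeded NFATC2, at 37.5%. The summed level of the 4 factors was 66.5, 64.1 and 67.5 CPM in sgCtrl and 45.9, 49.7 and 48.7 CPM in sgITPR3, a difference of -17.9 CPM (exact permutation test, two-sided, p = 0.1). Each transcript gives about 1 tag whatever its length, so these sums compare transcripts without a length correction, although priming may differ between transcript ends.

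**Figure D2:**
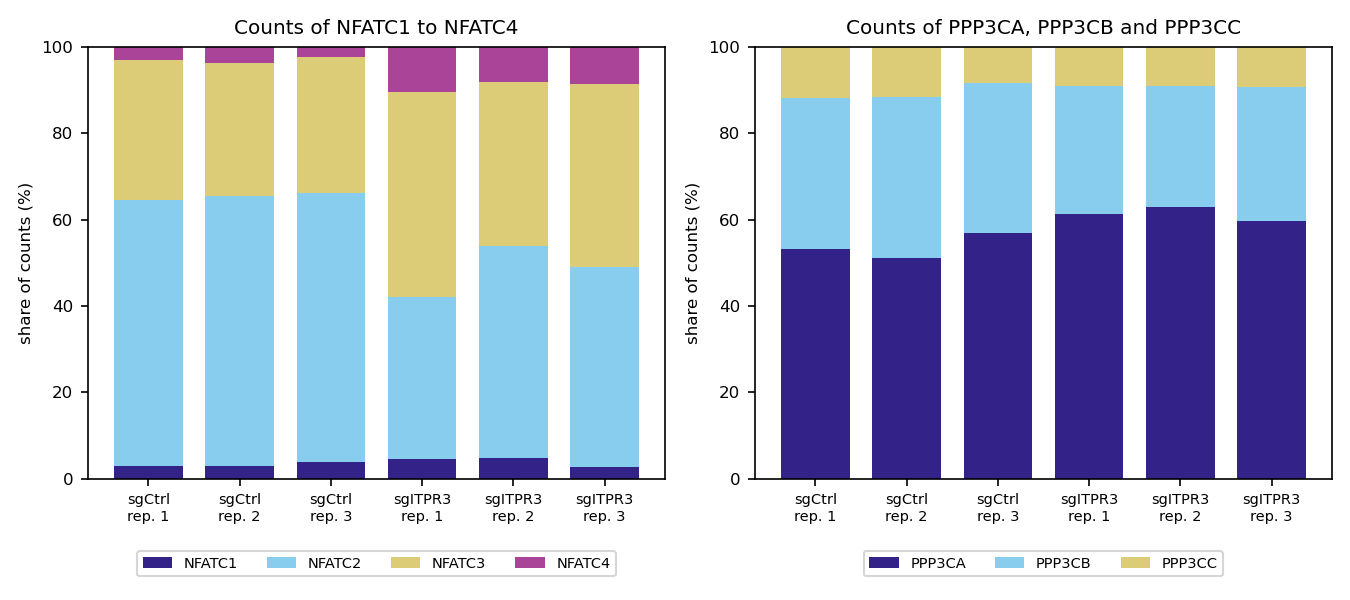
Stacked bars give, for each library, the share (%) of counts held by each calcium-regulated NFAT gene (left) and each calcineurin catalytic subunit gene (right). NFATC2 takes 61.8% to 62.6% in sgCtrl and 37.5% to 49.2% in sgITPR3, and PPP3CA takes 51.0% to 57.0% in sgCtrl and 59.7% to 63.0% in sgITPR3.

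NFAT5, the tonicity factor, was the most abundant member in both groups. It was at 87.0, 87.1 and 94.7 CPM in sgCtrl and 91.4, 94.2 and 103.1 CPM in sgITPR3, with overlap between the groups (log2 fold change 0.10, 95% interval -0.05 to 0.26, edgeR adjusted p = 0.333). NFAT5 (69565094 to 69704666) and NFATC3 (68084751 to 68229259) lie 1.34 Mb apart on chromosome 16 and neither passed the test.

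Among the catalytic subunits, PPP3CA (ENSG00000138814, chromosome 4, 101023409 to 101348278, minus strand), the main isoform of brain and many other tissues, was at 57.5, 58.6 and 65.9 CPM in sgCtrl and 67.2, 70.7 and 72.6 CPM in sgITPR3. All sgITPR3 libraries lay above the sgCtrl libraries, by 1.35 CPM at the nearest pair, and the log2 fold change of 0.21 (SE 0.075) did not pass (edgeR adjusted p = 0.0564). PPP3CB (ENSG00000107758, chromosome 10, 73436428 to 73496024, minus strand), a closely related and widely expressed isoform, was at 37.9, 43.0 and 40.0 CPM in sgCtrl and 32.6, 31.4 and 37.7 CPM in sgITPR3. Here all sgITPR3 libraries lay below, by 0.184 CPM at the nearest pair, and the log2 fold change of -0.25 (SE 0.09) did not pass either (edgeR adjusted p = 0.0578). PPP3CC, the isoform known from testis, was at 12.8, 13.3 and 9.72 CPM in sgCtrl and 9.80, 10.1 and 11.3 CPM in sgITPR3, with overlap (log2 fold change -0.20, edgeR adjusted p = 0.323).

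As a share of the catalytic subunit counts, PPP3CA was at 53.1%, 51.0% and 57.0% in sgCtrl and at 61.3%, 63.0% and 59.7% in sgITPR3, 7.63 points higher on average without overlap (exact permutation test, two-sided, p = 0.1, the smallest possible). PPP3CB went from 35.7% ± 1.51 to 29.6% ± 1.51. The summed level of the 3 genes was 113 ± 4.03 CPM in sgCtrl and 115 ± 6.36 CPM in sgITPR3, a difference of 1.56 CPM that lay within the spread of either group (exact permutation test, two-sided, p = 0.8).

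The regulators did not pass the test. RCAN1 (ENSG00000159200, chromosome 21, 34513142 to 34615142, minus strand), which feeds back on calcineurin, was at 16.8, 13.5 and 13.7 CPM in sgCtrl and 15.5, 14.9 and 12.3 CPM in sgITPR3. The groups overlapped (log2 fold change -0.04, edgeR adjusted p = 0.846), and the 95% interval ran from -19.6% to 17.1%. The gene has 14 annotated transcripts from 13 starts but 6 ends in GENCODE release 29, so transcripts from the inner start, shown with its 5 GGAAA cores, and from the outer starts were counted together. RCAN3, a family member that also binds calcineurin, was at 49.4, 50.5 and 58.2 CPM in sgCtrl and 48.1, 48.9 and 48.8 CPM in sgITPR3. Every sgITPR3 library was lower, but by only 0.503 CPM at the nearest pair (log2 fold change -0.12, 95% interval -0.29 to 0.05, edgeR adjusted p = 0.316). Groups did not overlap for 5 of the 10 members, against 39.3% of all tested genes. NFATC2, PPP3CB and RCAN3 lay wholly lower in sgITPR3 (19.7% of all tested genes did) and NFATC4 and PPP3CA wholly higher (19.6%).

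**Figure D3:**
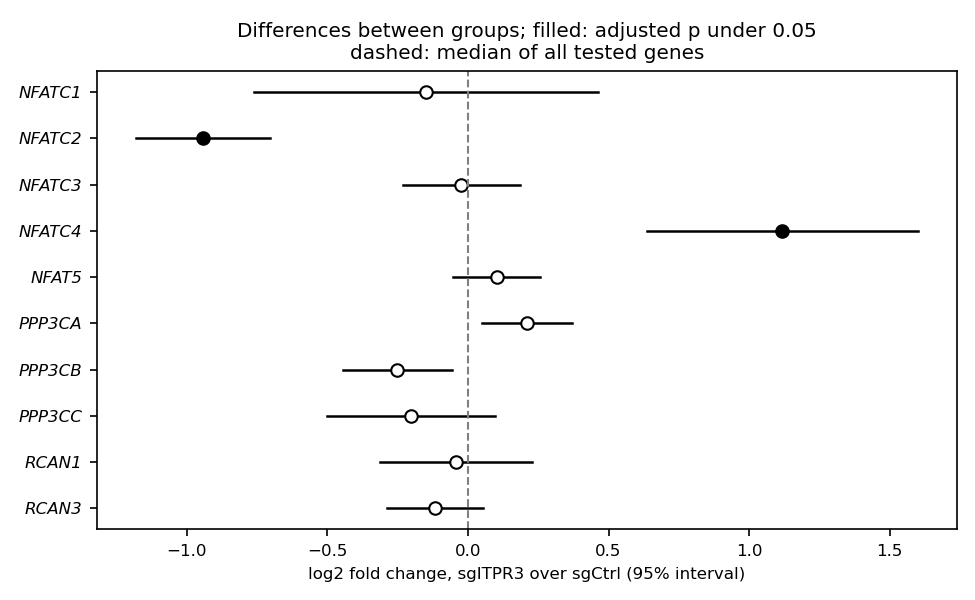
Points give the log2 fold change of sgITPR3 over sgCtrl for each member and lines its 95% interval; filled points passed the test. NFATC2 at -0.94 and NFATC4 at 1.12 stand away from the dashed median of all tested genes, 0.000859, and PPP3CA at 0.21 and PPP3CB at -0.25 lie on either side of it.

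**Figure D4:**
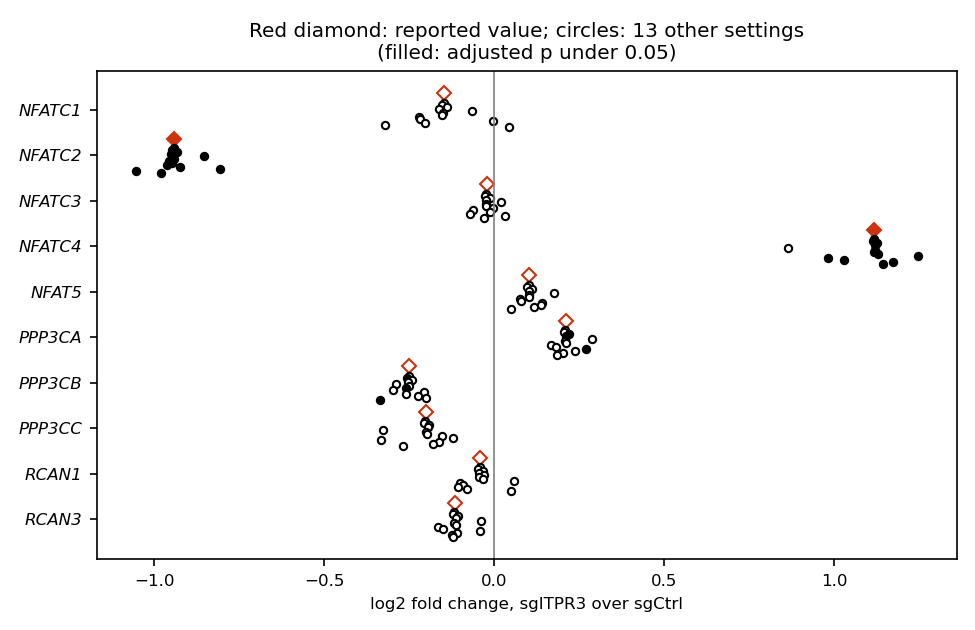
Log2 fold changes of each member as reported (red diamonds) and in 13 other settings (circles), filled where the adjusted p was under 0.05; vertical offsets only separate the points. NFATC2 stays between -1.05 and -0.81 and NFATC4 between 0.86 and 1.25, while NFATC1, NFATC3 and RCAN1 cross 0.

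In order of level the sgCtrl libraries had NFAT5 (89.6 ± 4.39 CPM), PPP3CA (60.7 ± 4.55), RCAN3 (52.7 ± 4.79), NFATC2, PPP3CB (40.3 ± 2.53), NFATC3 (20.8 ± 0.916), RCAN1 (14.7 ± 1.83), PPP3CC (11.9 ± 1.94), NFATC1 (2.15 ± 0.361) and NFATC4. Neighbours whose libraries overlapped were PPP3CA with RCAN3, NFATC2 with PPP3CB, and NFATC1 with NFATC4. In sgITPR3 NFATC2 stood below PPP3CB, at 33.9 ± 3.37 CPM, and overlapped with NFATC3, at 20.5 ± 1.47 CPM, and NFATC4 stood above NFATC1, at 1.92 ± 0.52 CPM, without overlap. The order of the other members was the same in both groups. Over all 6 libraries NFAT5 stood at percentile 88.5 of the levels of tested genes and NFATC1 at percentile 20.7.

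Tested genes within 1 Mb of NFATC2 and NFATC4 passed in both directions. Across all tested genes 11.9% fell and 11.6% rose. Of 12 around NFATC2, 4 fell and 1 rose, with a median log2 fold change of -0.09. Of 37 around NFATC4, 3 fell and 2 rose, with a median of 0.03. Those that passed had one direction around 4 members: 2 of 3 genes around PPP3CA and 2 of 10 around RCAN1 rose, and 5 of 28 around RCAN3 and 1 of 12 around NFATC1 fell. The medians around the 10 members ran from -0.20 (NFATC1, 12 genes) to 0.29 (PPP3CA, 3 genes). Of the 10 members, 8 overlap another annotated gene, 4 of them (NFATC3, PPP3CA, PPP3CB and RCAN3) one that was tested.

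By correlation of log2 CPM over the 6 libraries, the genes most like NFATC2 among 10631 others with at least 5 CPM were DNAJC16 (r = 0.999), ARHGAP26 (r = 0.995) and MCPH1 (r = 0.992). This measure ignores size: MCPH1 went only from 11.6 to 10.3 CPM and did not pass (edgeR adjusted p = 0.315), and ARHGAP26 fell from 54.1 to 39.4 CPM (edgeR adjusted p = 7.34e-04). DNAJC16 went from 22.8 to 18.9 CPM (edgeR adjusted p = 0.0453), a call that held in 3 of 13 other settings (edgeR, DESeq2 or limma adjusted p up to 0.237). Most like NFATC4 were MX1 (r = 0.998), CCND2 (r = 0.995) and PPP1R13B (r = 0.995). MX1, an interferon-induced antiviral gene, rose from 5.81 to 12.4 CPM, CCND2, encoding cyclin D2, from 95.4 to 212 CPM and PPP1R13B, encoding a partner of p53, from 13.7 to 19.4 CPM, the last with an edgeR adjusted p of 0.085 when ALB was a covariate. These correlations hold the difference between the groups within them, rest on 3 libraries a group, and are given as a description.

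Of 13 listed partners of calcineurin, 10 were tested, 1 rose, 1 fell and 8 did not pass, with a median log2 fold change of 0.05. A share of 2 in 10 is near the 23.5% of all tested genes. PPP3R1, the regulatory subunit, named after its values were seen, was at 89.8, 96.9 and 120.3 CPM in sgCtrl and 110.0, 102.1 and 105.8 CPM in sgITPR3, with overlap (log2 fold change 0.05, edgeR adjusted p = 0.746). Its testis paralog PPP3R2 had 1 count in all. CALM3, which encodes calmodulin, rose from 207 ± 14.0 to 267 ± 20.5 CPM (log2 fold change 0.37, edgeR adjusted p = 0.00283), and with ALB as a covariate its log2 fold change was 0.26 and the call ended (edgeR adjusted p = 0.0637). CALM2, which encodes the same protein, did not pass (log2 fold change -0.16, edgeR adjusted p = 0.117). CHP1, which encodes a calcium-binding protein homologous to the regulatory subunit, fell from 39.2 ± 1.79 to 32.9 ± 1.53 CPM (edgeR adjusted p = 0.0361). That call was lost without sgCtrl replicate 1 or without any of the sgITPR3 replicates (edgeR adjusted p = 0.0525 to 0.138), without a low-count filter (0.053) and with ALB as a covariate (0.113). Its log2 fold change was -0.25, and -0.29 to -0.22 in these settings.

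None of the kinases and transport factors that move NFAT in and out of the nucleus passed the test. Of 14 listed, 13 were tested, 0 were called by edgeR (adjusted p), DESeq2 or limma-voom, and 2 had an unadjusted edgeR p under 0.05. Over all 15804 tested genes, 23.5% were called and 5630 had an unadjusted p under 0.05. Their median log2 fold change was 0.09. KPNB1, encoding the import receptor importin beta, was at 586 to 625 CPM in sgCtrl and 641 to 690 CPM in sgITPR3 (log2 fold change 0.13, edgeR adjusted p = 0.168). CSNK1A1, encoding a casein kinase that phosphorylates NFAT, had a log2 fold change of -0.01 (edgeR adjusted p = 0.932).

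Of 11 other substrates of calcineurin, all tested, 1 rose, 1 fell and 9 did not pass (median log2 fold change -0.02), a share near the 23.5% called over all genes. MEF2C, a transcription factor of muscle and neurons, had 3, 11 and 1 counts in sgCtrl and rose to 45, 50 and 32 counts in sgITPR3 (log2 fold change 2.83, edgeR adjusted p = 0.00108). The highest of its sgCtrl counts came from replicate 2, the sgCtrl library with the most ALB. Without that library its log2 fold change was 4.05, and with ALB as a covariate it was 2.01, both still called. KSR2, an ERK scaffold, was at 7.67 ± 0.315 CPM in sgCtrl and fell to 3.99 ± 0.864 CPM (log2 fold change -0.93, edgeR adjusted p = 0.00195). The abundant substrates DNM1L and MEF2A did not pass (log2 fold changes -0.08 and 0.05, edgeR adjusted p = 0.593 and 0.71).

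Genes known as calcineurin and NFAT targets went both ways. Of 20 listed, 13 passed the filter, 3 rose, 2 fell and 8 did not pass (5 of 13 against 23.5% of all genes), with a median log2 fold change of 0.15. TNF, the cytokine gene whose promoter NFATC2 binds in T cells, was at 9.57, 7.91 and 7.74 CPM in sgCtrl and 1.34, 1.42 and 0.619 CPM in sgITPR3 (log2 fold change -2.87, edgeR adjusted p = 1.59e-06). LIF, a cytokine of the interleukin 6 family, was at 25.3, 18.6 and 15.4 CPM in sgCtrl and 6.69, 7.65 and 5.52 CPM in sgITPR3 (log2 fold change -1.57, edgeR adjusted p = 1.85e-05). The groups did not overlap for either gene.

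The targets that rose were the nuclear receptor gene NR4A1, the zinc finger gene EGR2 and TNFSF10, which encodes the death ligand TRAIL. NR4A1 was at 66.0, 62.2 and 52.0 CPM in sgCtrl and 82.9, 94.7 and 70.9 CPM in sgITPR3 (log2 fold change 0.47, edgeR adjusted p = 0.0056). TNFSF10 rose from 1.42 ± 0.491 to 3.01 ± 0.16 CPM (log2 fold change 1.08, edgeR adjusted p = 0.0136), and its call ended without sgCtrl replicate 1 (edgeR adjusted p = 0.0528). EGR2, with a log2 fold change of 0.78 (edgeR adjusted p = 0.00921), lost its call without sgITPR3 replicate 2 (edgeR adjusted p = 0.0706). With ALB as a covariate all 3 stayed higher but lost their call, with log2 fold changes of 0.36 for NR4A1, 0.60 for EGR2 and 0.91 for TNFSF10 and larger SEs (edgeR adjusted p = 0.0812, 0.125 and 0.118). TNF and LIF, at -2.88 and -1.60 in that fit, were still called. CDK6 and VEGFA, the most abundant targets that did not pass, had log2 fold changes of 0.15 and -0.22 (edgeR adjusted p = 0.164 and 0.251). VEGFA was 73.6 CPM in sgCtrl replicate 2 and 46.5 to 50.3 CPM in the other 5 libraries, and with ALB as a covariate it was called lower (log2 fold change -0.51, edgeR adjusted p = 0.00312).

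Of 12 targets of NFAT5 in osmotic stress, 9 were tested, 3 fell, 0 rose and 6 did not pass (median log2 fold change -0.35). The share of 3 in 9 stands beside 23.5% of all tested genes called in either direction and 11.9% that fell. NFAT5 itself had a log2 fold change of 0.10. SLC6A6, the taurine transporter gene, was at 32.9, 27.9 and 26.4 CPM in sgCtrl and 16.0, 18.6 and 16.9 CPM in sgITPR3 (log2 fold change -0.76, edgeR adjusted p = 1.29e-04). S100A4, encoding a small calcium-binding protein, fell from 886 ± 27.7 to 664 ± 49.3 CPM (log2 fold change -0.42, edgeR adjusted p = 6.61e-04), and the water channel gene AQP1 from 4.51 ± 1.26 to 1.53 ± 0.321 CPM (edgeR adjusted p = 7.55e-04). SLC5A3, the inositol transporter gene that is among the best known NFAT5 targets, was at 327.9 to 375.8 CPM in sgCtrl and 292.9 to 417.5 CPM in sgITPR3 and did not pass (edgeR adjusted p = 0.89), nor did the glucose transporter gene SLC2A1 (log2 fold change -0.17, edgeR adjusted p = 0.0788), which DESeq2 called lower (adjusted p = 0.0349).

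**Figure D5:**
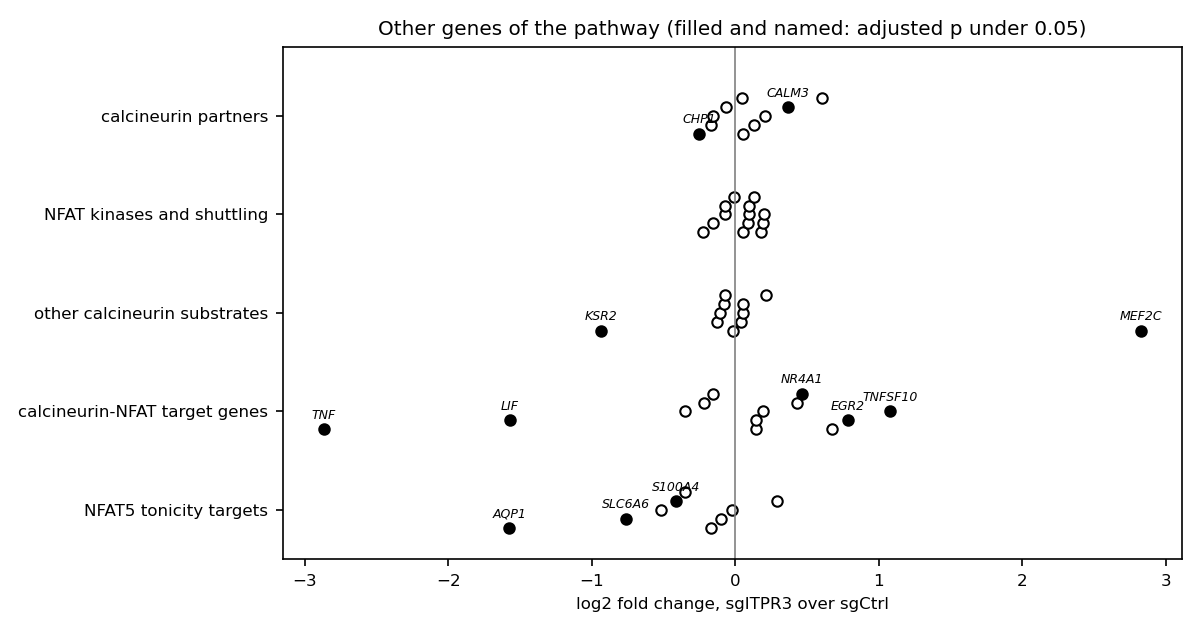
Each circle is the log2 fold change (sgITPR3 over sgCtrl) of a tested gene of the 5 pathway lists; circles are offset vertically only to separate them, and filled, named circles passed the test. The 12 called genes range from TNF at -2.87 to MEF2C at 2.83, and none belongs to the kinases and transport factors.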

How the data were processed

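Polyadenylated RNA of 3 sgCtrl and 3 sgITPR3 libraries was sequenced from transcript ends with a Lexogen kit, per the labels. The deposited values are raw gene counts; the authors' tools, per the submitters' processing notes, were STAR 2.6.0a (build GRCh38), featureCounts 1.6.3 and DESeq2. The sources used here do not give the annotation release, the strand setting or how mouse reads were treated. Of 58884 gene identifiers, 58611 had a position in GENCODE release 29, and symbols came from a gene name table. Genes were kept by filterByExpr (minimum count 10; 15804 genes), scaled by TMM (factors 0.961 to 1.03) and tested with the quasi-likelihood test of edgeR 4.0.16 in R 4.3.3, with Benjamini-Hochberg adjustment across all tested genes (threshold 0.05), without covariates. SE is the absolute log2 fold change over the square root of F, and intervals use the t distribution of that fit. Alternatives used edgeR, DESeq2 1.42.0 and limma 3.58.1. Within groups, the correlation of log2 CPM was 0.989 to 0.994, and libraries differed by a chi-square per degree of freedom of 4.29 to 7.76. No library is thus a copy or a plain resequencing of another, which does not tell whether they stem from different animals. The procedure was also run on simulated counts with the same dispersion for every gene and independent libraries, and no result here rests on that run.

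The members, the 5 pathway lists and the 7 marker lists were chosen with earlier results of these data known. Named were all members, ITPR3, up to 6 passing genes of each list by p with the 2 most abundant others, and the 3 genes most correlated with each passing member. One gene that this rule names is not reported here. Intervals cover the spread between libraries only.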

Additional observations from a re-analysis of the deposited data

How the results depend on the processing

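NFATC2 kept its fall in all 13 other settings (log2 fold change -1.05 to -0.81) and NFATC4 its rise, with its call in all but the fit with ALB as a covariate. Of 507 pairs of a named gene and a setting, 457 kept direction and call, 24 lost a call, 9 gained one and 17 changed sign; the cause was not tested. Members that fell were 2 without a low-count filter and with limma-voom, PPP3CB being the added one (adjusted p = 0.0486 in each). Members that rose were 2 with a filter of 1 CPM in 3 libraries and with the replicate number as a block, PPP3CA being the added one (adjusted p = 0.042 and 0.0413), and 0 with ALB as a covariate. That covariate also took all genes called to 993 lower and 1012 higher, the calcineurin partners to 0 and the NFAT targets to 3. The partners called were 1 without a low-count filter, and the kinases and transport factors called were 1 with the 1 CPM filter. Correlations of same-numbered deviations were -0.0511, 0.0384 and 0.119. Of the libraries, 1 of 3 sgCtrl and 2 of 3 sgITPR3 correlated best with their own number. With 3 libraries a group these values cannot decide whether the replicate numbers pair the libraries. The replicate block gave 1981 lower and 1896 higher genes, beside 1882 and 1835 in the main fit.

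Leaving out each library gave 1 to 2 members lower (2 without sgITPR3 replicate 3, adding PPP3CB at adjusted p = 0.0267), 1 to 2 higher (2 without sgCtrl replicate 3, adding PPP3CA at adjusted p = 0.0292), 1196 to 2140 genes lower and 1135 to 2121 higher (fewest without sgITPR3 replicate 2), 1 to 3 partners, 0 to 1 kinases and 5 to 7 targets. The summed catalytic subunit difference ran from -2.03 to 3.99 CPM, below 0 without sgCtrl replicate 1 (-0.756) and without sgITPR3 replicate 3, and was 6.09 CPM when counts were scaled to the plain library total. Log2 fold changes that crossed 0 were all uncalled in the main fit and in the fits without a library. They were those of NFATC1 (-0.321 to 0.0426), NFATC3 (-0.0729 to 0.0308), RCAN1 (-0.108 to 0.0581), PPP3R1 (-0.0409 to 0.180) and CSNK1A1 (-0.0896 to 0.0421). DNM1L (-0.158 to 0.0150), MEF2A (-0.0370 to 0.104), VEGFA (-0.349 to 0.0115) and SLC5A3 (-0.188 to 0.0774) crossed 0 as well. With ALB as a covariate NFATC3 was at 0.0185, CSNK1A1 at 0.00565 and SLC5A3 at 0.138. In that fit VEGFA was called lower (log2 fold change -0.509, edgeR adjusted p = 0.00312). CALM2 was called lower without sgCtrl replicate 2 (adjusted p = 0.0348). Among the members, NFATC1 and NFATC4 had the fewest counts, 26 to 112 per library. Groups of 3 were not tested for a deviating library.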
